A study of Bruguiera gymnorhiza with 19 samples.

Results

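In leaves of Burma mangrove (*Bruguiera gymnorhiza*), 27 of the 11997 mangrove transcripts on the array had a higher level after 24 h in sorbitol but not yet after 6 h, and no comparable increase in NaCl at either time. They were chosen from the measured values themselves, on log2 intensities normalized between arrays. The highest of the 6 group means had to be at least 9.5, the sorbitol 24 h mean at least 1.2 above the sorbitol 0 h mean, the sorbitol 6 h mean less than 0.6 above it, and both NaCl means less than 0.5 above the NaCl 0 h mean. Of the 11997 probes, 5184 reached the level, 212 of these also reached the difference at 24 h, 96 of these met the limit at 6 h, 50 the limit in NaCl at 6 h, and 27 the limit in NaCl at 24 h. Because the choice used all 6 group means, the differences between groups given for these 27 transcripts describe the choice and carry no test.

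The study followed salt and osmotic stress in plants aged 3 years and 7 months, whose culture water was exchanged for 1 M sorbitol (spelled Solbitol in the labels) or for 500 mM NaCl. Leaves were taken after 0, 6 and 24 h in sorbitol and after 0, 6 and 24 h in NaCl, the 0 h leaves just before treatment. Each of the 6 groups held 3 samples, named A, B and C and called biological replicates, and the RNA of NaCl 0 h C was run on a repeat array, which makes 19 arrays. For NaCl 24 h C the labels disagree, since its description names replicate A while its title and replicate label name C, and the title was followed. The labels do not state that the replicates were separate plants, so the spread between them may be partly technical, and untreated leaves of 6 h or 24 h are not part of the samples.

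Sorbitol is an uncharged sugar alcohol that lowers the water potential around the roots, so that the plant has to draw water against an osmotic gradient. NaCl does the same and also brings sodium and chloride ions, which salt-tolerant trees of tidal shores exclude, secrete or store in vacuoles. Plant cells meet both kinds of stress with early signalling through calcium and abscisic acid and with later accumulation of compatible solutes, protective proteins and changes in cell walls. Probes carry the name of a clone or contig in the files and no gene name, so no function is given for any transcript below, and the leaf label could not be checked against marker genes.

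Each transcript was read by 1 oligonucleotide, 35 bases long for 24 of the 27 and 37 or 38 bases long for the others. The sequences printed here belong to the transcripts on which the description turns, taken as 5′ to 3′ in the order of letters of the array files, which name no strand, with the position in the clone or contig in the name. The first 5 belong to the transcripts whose sorbitol 24 h samples stood farthest above all other samples.
Bg05-20_B04_595_629: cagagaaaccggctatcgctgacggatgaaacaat
Bg05-25_K02_417_451: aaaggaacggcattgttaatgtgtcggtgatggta
Bg01-03_G10_105_139: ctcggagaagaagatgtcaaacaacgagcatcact
Bg04-16_L16_193_227: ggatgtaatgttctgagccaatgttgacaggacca
CL1010Contig1_657_691: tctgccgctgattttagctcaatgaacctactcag

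The next pair reads transcripts that were higher in all sorbitol series samples than in all NaCl series samples, before treatment included.
Bg04-19_C16_526_560: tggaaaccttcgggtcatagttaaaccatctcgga
CL8Contig1_328_362: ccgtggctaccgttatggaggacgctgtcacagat

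The last 4 show 2 pairs of related probes of which only the first of each pair is among the 27. Capitals mark bases that 2 probes have in common as 1 run of at least 20.
Bg04-05_N13_400_434: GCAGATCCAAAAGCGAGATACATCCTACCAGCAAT
Bg03-01_D16_400_434: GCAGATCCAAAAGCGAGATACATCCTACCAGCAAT
CL15Contig2_699_733: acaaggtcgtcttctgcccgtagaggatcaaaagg
CL15Contig1_574_608: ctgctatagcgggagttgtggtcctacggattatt

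The first pair has the same 35 bases throughout, and the longest run that the CL15 probes share is 4 bases. The other 26 members share runs of 10 to 14 bases at most with any probe of the array on either strand. Over the whole array, 485 of 11997 probes (4.04%) share at least 20 bases on the same strand with another probe.

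All values below are log2 of the spot's mean intensity plus 50, quantile-normalized between the 18 arrays, so that every array has a median of 8.73 over all probes. Before normalization the median spot intensity was between 52.9 and 1729, and per array 6382 to 8236 probes lay above the 95th percentile of the 70 negative control spots, called above background here. Between 2126 and 3216 probes read 0 on 4 arrays, the 3 C samples of the sorbitol series and NaCl 6 h C, against at most 54 on any other sample array. These are referred to as the arrays of lowest signal, and what the choice found without them is given at the end.

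The median over the 27 transcripts was 8.88, 8.97 and 8.86 in the sorbitol 0 h samples, 9.11, 9.16 and 8.83 at 6 h and 10.63, 10.87 and 10.28 at 24 h. In the NaCl series it was 8.77, 8.90 and 8.85 at 0 h, 8.34, 8.38 and 8.67 at 6 h and 8.81, 8.58 and 8.78 at 24 h. The 3 sorbitol 24 h samples stood apart from the other 15, which lay between 8.34 and 9.16. As a mean over samples the median level was 10.59 ± 0.30 at 24 h in sorbitol, against 8.90 ± 0.06 at 0 h (SD, n = 3 each), and 8.72 ± 0.12 at 24 h in NaCl, against 8.84 ± 0.06 at 0 h (SD, n = 3 each). In whole leaves, a change in the number of cells of a type and a change in RNA per cell cannot be told apart.

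The median difference between sorbitol 24 h and sorbitol 0 h was 1.78 on the log2 scale, with a range of 1.23 to 3.17, beside -0.01 over the 5184 probes of like level. Of the 27 transcripts, 11 had a difference of at least 2 and 11 one under 1.5. For 6 of the 27 no sorbitol 0 h sample was above background, and with these 6 at the bound that the spot means give, as defined below, the median was 1.61. The 21 others had differences of 1.23 to 2.20. At 6 h in sorbitol the median difference from 0 h was 0.01, with 16 of 27 above 0 and a range of -1.38 to 0.60. The limits of the choice placed the step between 6 h and 24 h in advance. Between those times the median difference was 1.69 (range 0.98 to 3.58), beside -0.02 over the 5184 probes, and this too follows from the choice.

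In NaCl the median difference from 0 h was -0.17 at 6 h (range -1.06 to 0.43) and 0.05 at 24 h (range -0.99 to 0.48). These ranges have an upper end set by the limit of 0.5 and no lower limit. For 7 of the 27, no NaCl 0 h and no NaCl 24 h sample was above background, so no fold is given for them in NaCl, whereas 12 were above background in all 9 NaCl samples. The 24 h samples of the series differed from each other by a median of 1.90 over the members, sorbitol minus NaCl, beside 0.00 over the 5184 probes.

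Non-overlap of samples was counted next, beside the share of the 5184 probes that show the same. The 3 sorbitol 24 h samples lay above the 3 sorbitol 0 h samples for 23 of the 27 transcripts (17.4% of the 5184), above the 3 NaCl 24 h samples for 22 (17.4%), and above all other 15 samples for 20 (4.24%). In limma's fit over 8642 probes, 24 of the 27 were called higher at 24 h than at 0 h in sorbitol, at an adjusted p under 0.05 (4.93% of all tested probes), and the others were Bg02-02_N16, Bg02-09_A06 and Bg05-17_K05. The difference of the 24 h responses, sorbitol minus NaCl, was called for 9 of the 27 (1.48%). The choice of the transcripts used these contrasts, and nothing is read from these counts. The sorbitol 24 h mean was the highest of the 6 group means for 26 transcripts, and the exception is Bg01-06_A14, described with the transcripts that differed at 0 h.

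**Figure D1:**
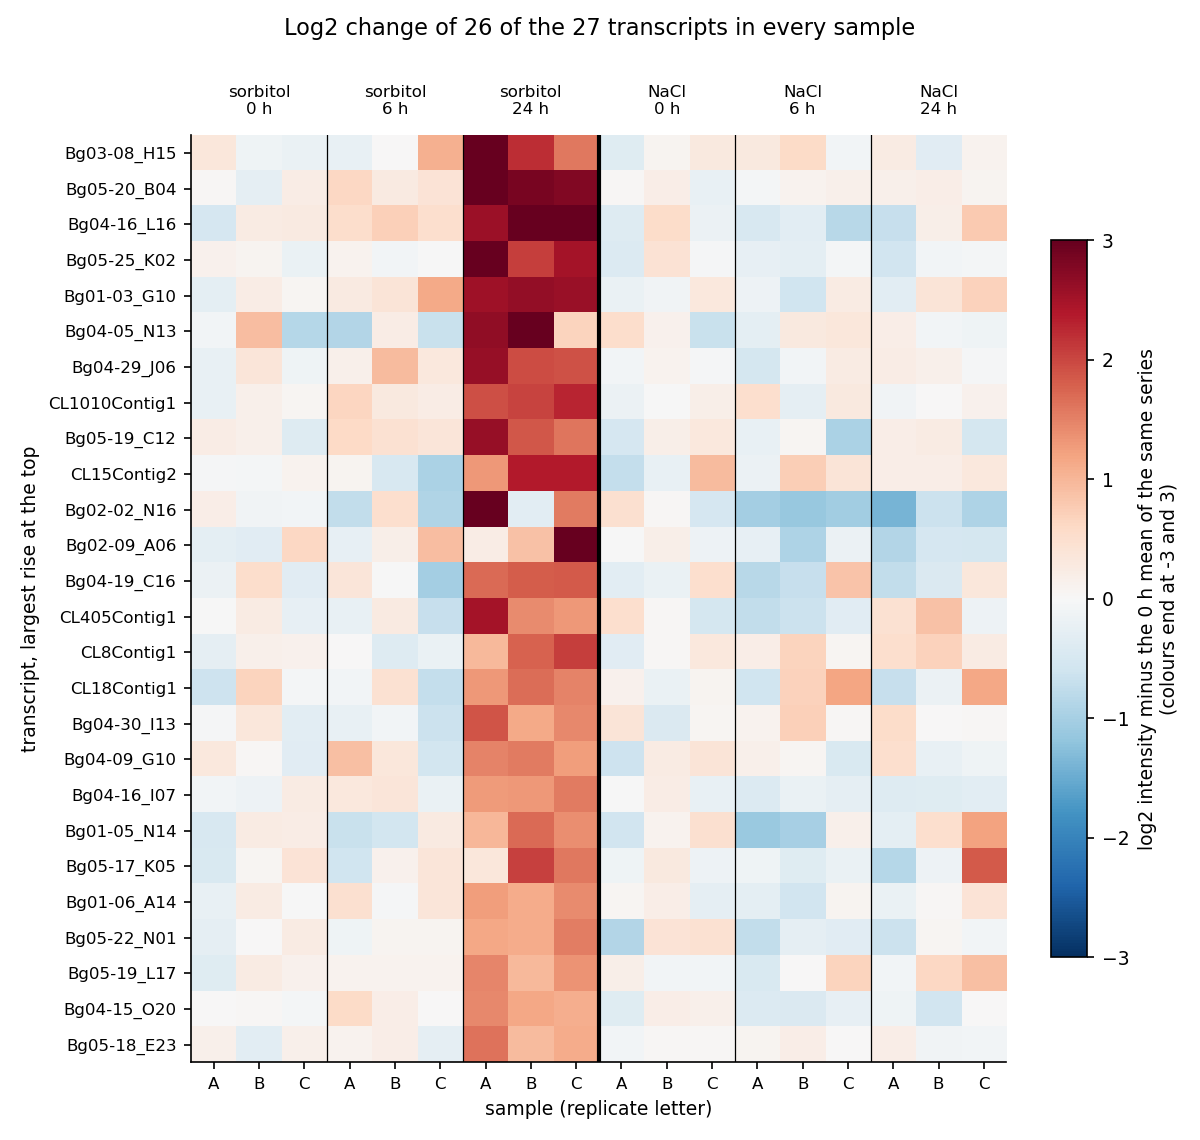
Log2 intensity of 26 of the 27 transcripts (rows, largest difference at 24 h in sorbitol at the top) in the 18 samples (columns), each minus the 0 h mean of its own series; red is higher and blue lower, and colours end at -3 and 3. The red block is the 3 sorbitol 24 h columns, where the differences of the means run from 1.23 to 3.17, while in NaCl they run from -1.06 to 0.48.

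All 27 transcripts were above background in all 3 sorbitol 24 h samples, and 6 of them were above it in no sorbitol 0 h sample. For these 6 only a bound on the fold can be given, and the differences of means used to choose and order them are differences from background readings. It sets the sorbitol 24 h mean against a mean over the 0 h arrays, in which each array enters with the lowest value of any probe above background there, or with the probe's reading where that is higher. Bg05-20_B04 and Bg05-25_K02 were above background in no sample outside sorbitol 24 h.

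Bg05-20_B04 reached 10.39, 9.73 and 9.68 at 24 h in sorbitol, against 6.93, 6.63 and 7.12 at 0 h. Its other 12 samples lay between 6.76 and 7.52. The lowest sorbitol 24 h sample therefore stood 2.16 above the highest of the other 15, the widest gap among the 27. It was at least 2.79-fold higher than at 0 h. Without the arrays of lowest signal it no longer met the limits of the choice.

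Bg05-25_K02 had 10.51, 9.39 and 9.82 at 24 h in sorbitol, against 7.43, 7.39 and 7.12 at 0 h. The other samples lay between 6.63 and 7.64, and the gap to the sorbitol 24 h samples was 1.75. It was at least 2.73-fold higher than at 0 h. Both transcripts thus had a reading distinct from the negative controls at 1 time of 1 series only.

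Bg04-16_L16 gave 10.14, 10.90 and 10.66 at 24 h in sorbitol, against 7.06, 7.80 and 7.83 at 0 h, at least 4.33-fold higher. It also had 8.09, 8.28 and 8.07 at 6 h in sorbitol, of which 2 samples, A and C, were above background. Their spot means were 117.1 and 6.2, against cut-offs of 113.8 and 2.51, and C is an array of lowest signal. The 6 h mean of Bg04-16_L16 was inside the limit of 0.6 by a small margin. In NaCl it ran from 7.14 (6 h C) to 8.74 (24 h C), and only NaCl 24 h C was above background.

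Bg01-03_G10 had the tightest sorbitol 24 h values of the leading transcripts, 10.24, 10.33 and 10.28, against 7.41, 7.93 and 7.76 at 0 h. At 6 h in sorbitol it had 7.98, 8.09 and 8.83, a mean that met the limit of 0.6 by a small margin. Its fold at 24 h was at least 3.56. The NaCl samples reached 8.78 in NaCl 24 h C and overlapped with the sorbitol 0 h and 6 h samples but not with those of sorbitol 24 h.

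CL1010Contig1 was above background in all 18 samples and had 10.87, 10.97 and 11.21 at 24 h in sorbitol, against 8.72, 9.09 and 9.01 at 0 h. The remaining samples lay between 8.90 and 9.67, so all 3 sorbitol 24 h samples stood above all others. The difference was 2.08 ± 0.24 (SE), a fold of 4.23. In NaCl it had 9.67, 8.90 and 9.45 at 6 h and 9.07, 9.17 and 9.30 at 24 h, and its NaCl 0 h mean was 9.17 ± 0.17 (SD, n = 3), with overlap between all times.

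Bg05-19_C12 had 12.67, 11.93 and 11.66 at 24 h in sorbitol, against 10.29, 10.22 and 9.68 at 0 h, a fold of 4.07. Its samples at 6 h in sorbitol, 10.66, 10.51 and 10.42, lay above all 3 of 0 h by a small margin. In NaCl the values ran from 9.44 to 10.72. Bg04-29_J06 had 10.90, 10.22 and 10.18 at 24 h in sorbitol, against 8.05, 8.64 and 8.14 at 0 h, and at 6 h 8.44, 9.22 and 8.59. Its fold was 4.46, with only 1 of the 3 sorbitol 0 h samples above background, and its NaCl samples lay between 7.90 and 8.67.

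**Figure D2:**
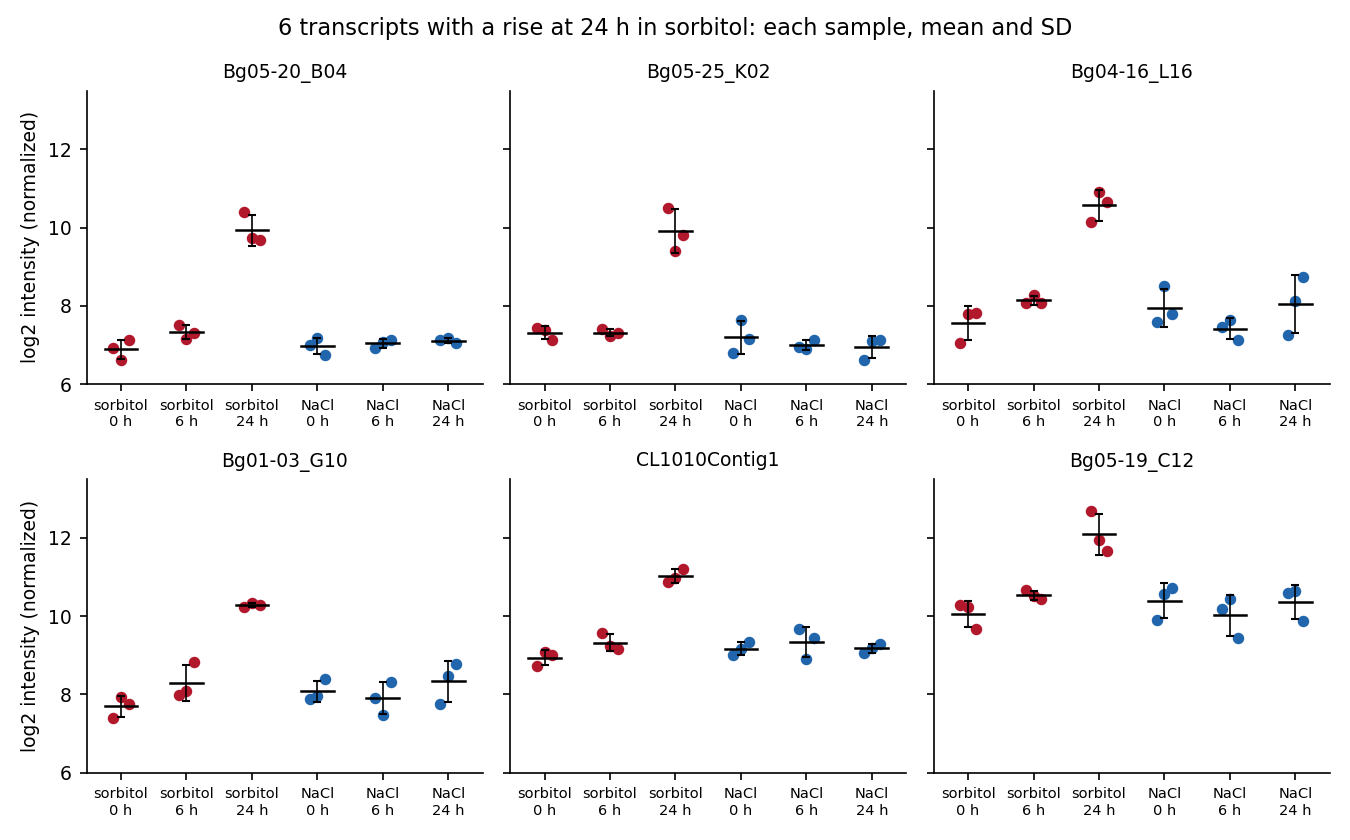
Normalized log2 intensity of 6 transcripts in each sample (points, sorbitol red and NaCl blue), with the group mean and SD (bars, n = 3). In each panel the 3 sorbitol 24 h points lie above the other 15, by 2.16 for Bg05-20_B04 and 0.94 for Bg05-19_C12.

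In some transcripts the sorbitol and NaCl series differed before any treatment. Among the 5184 probes the sorbitol 0 h samples also lay above the NaCl 0 h samples for 12.1% and below them for 11.2%. A difference at 0 h is therefore not read as a trait of the 27. Bg04-19_C16 had 12.16, 12.25 and 12.28 at 24 h in sorbitol, against 10.26, 10.97 and 10.11 at 0 h, a fold of 3.44. The 6 h samples in sorbitol had 10.81, 10.44 and 9.44, and the NaCl samples ran from 7.52 to 9.23. At 0 h the sorbitol series was 2.08 above the NaCl series.

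CL8Contig1, named after its values were seen, had 10.09, 10.89 and 11.18 at 24 h in sorbitol, against 8.83, 9.25 and 9.24 at 0 h. None of its 9 NaCl samples, from 7.26 to 8.29, was above background, while all 9 of the sorbitol series were. In all, 3 of the 27, Bg04-19_C16 and CL8Contig1 among them, had their 9 sorbitol series samples above their 9 NaCl series samples (0.367% of the 5184 probes). None showed the reverse (0.251%). The choice asked for a rise in sorbitol and limited that in NaCl, which favours the first order. Nothing is therefore read from these counts.

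The 0 h leaves of both series were untreated, and a difference between them belongs to the plants, the sampling or the arrays, which cannot be told apart here. Over the 27, 5 transcripts had their 3 sorbitol 0 h samples above the 3 NaCl 0 h samples (12.1% of the 5184) and 1 had them below (11.2%). Among the 5 were Bg04-19_C16, CL8Contig1, CL18Contig1 and Bg04-30_I13. CL18Contig1 had 12.88, 13.28 and 13.09 at 24 h in sorbitol, against 10.97, 12.26 and 11.54 at 0 h, a fold of 2.81, and its NaCl samples spread from 9.25 to 11.13. Its NaCl C samples at 6 h and 24 h (11.13 and 11.10) lay within the range of the sorbitol 0 h samples.

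Bg04-30_I13 (chosen after its values were seen) had 10.32, 9.58 and 9.88 at 24 h in sorbitol, against 8.41, 8.79 and 8.11 at 0 h, and its NaCl samples lay between 7.27 and 8.42. Its non-overlap at 0 h rested on sorbitol 0 h C at 8.11 against NaCl 0 h A at 8.09. That sorbitol spot, on an array of lowest signal, had a mean of 20.4 against a background cut-off of 53.4. Its mean was more than 2 times its median. From spot medians it read 7.37, below NaCl 0 h A (8.04) and C (7.67), so the 0 h samples overlapped. The 1 transcript whose sorbitol 0 h samples all lay below its NaCl 0 h samples was Bg01-06_A14, also chosen after its values were seen. It had 9.20, 9.07 and 9.37 at 24 h in sorbitol, against 7.71, 8.19 and 7.94 at 0 h, none of the 0 h samples above background. Its NaCl samples, from 8.87 to 9.83, were all above background. The sorbitol 24 h mean of 9.21 thus only came near the NaCl 0 h mean of 9.43, and the NaCl 24 h mean of 9.51 was the value that reached the level of 9.5.

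**Figure D3:**
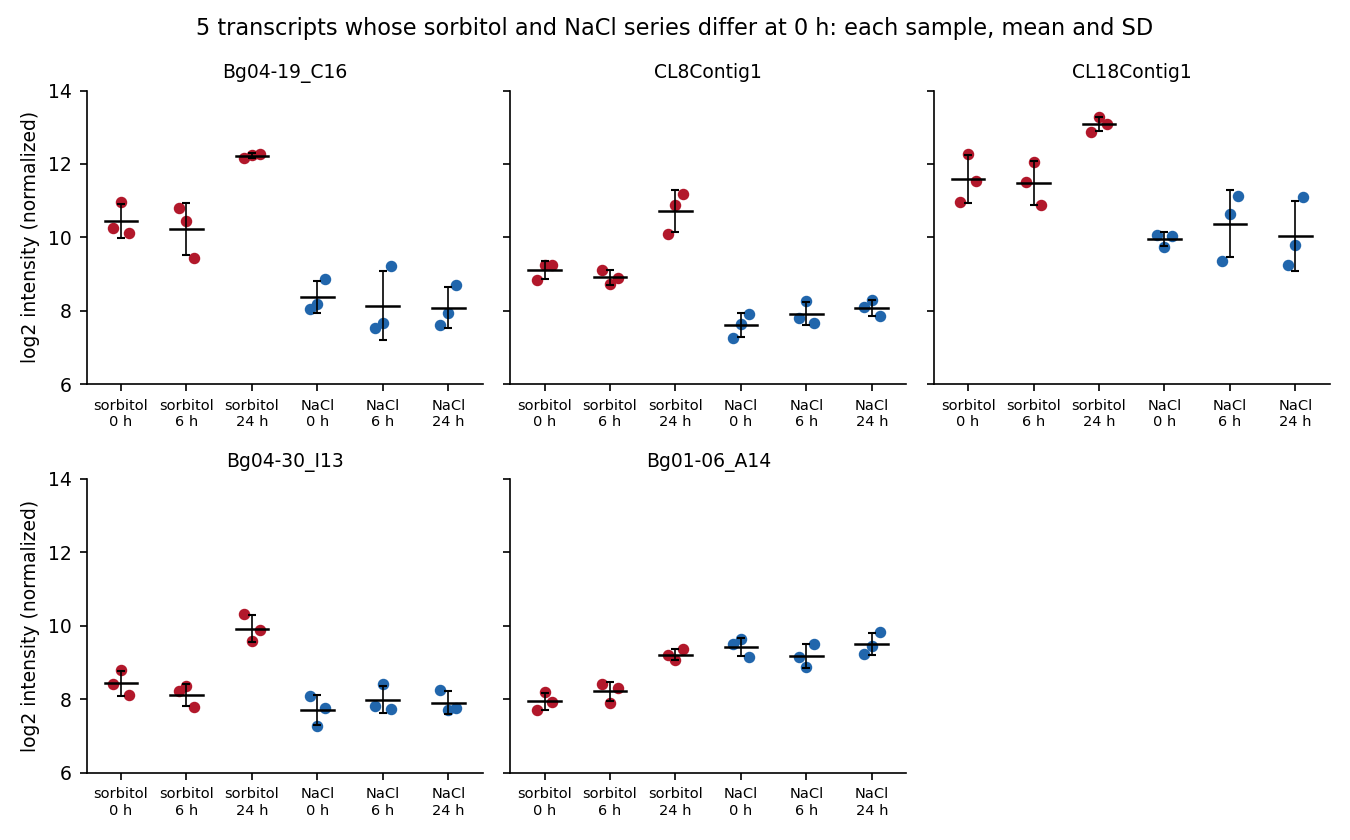
Normalized log2 intensity in each sample (points, sorbitol red and NaCl blue) with the group mean and SD (bars, n = 3) for 5 of the 6 transcripts whose 0 h samples did not overlap between the series. In 4 panels the sorbitol series is higher at 0 h. For Bg04-30_I13 this rests on sorbitol 0 h C, a spot below background, at 8.11 against 8.09 in NaCl 0 h A. In Bg01-06_A14 the sorbitol series is lower at 0 h (7.95 against 9.43) and reaches 9.21 at 24 h.

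The size of the difference at 24 h depends on which 0 h group is used. With the NaCl 0 h samples in place of those of sorbitol 0 h, Bg04-19_C16 was higher at 24 h in sorbitol by 3.86 and CL18Contig1 by 3.13. For Bg04-16_I07, which was lower in sorbitol 0 h than in NaCl 0 h, the difference was 0.94, against 1.38 with its own 0 h group. Bg04-16_I07 had 11.48, 11.52 and 11.78 at 24 h in sorbitol, against 10.13, 10.05 and 10.45 at 0 h, and its NaCl 24 h samples, 10.28, 10.31 and 10.34, all lay below its NaCl 0 h samples, 10.65, 10.88 and 10.44.

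CL15Contig2 had 13.36, 14.42 and 14.42 at 24 h in sorbitol, against 12.00, 11.98 and 12.16 at 0 h, a fold of 4.05. At 6 h in sorbitol it had 12.13, 11.55 and 11.10, and its NaCl samples ran from 10.69 to 12.36. The probe CL15Contig1_574_608, from a contig with the same cluster number, is not among the 27. It had 13.03, 14.67 and 14.61 at 24 h in sorbitol, against 9.64, 11.40 and 10.25 at 0 h, a difference of 3.67, and fell outside through its NaCl differences of 0.89 at 6 h and 0.73 at 24 h. Both probes of the cluster therefore had the same order in sorbitol, and the NaCl limits alone separated them.

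Bg04-05_N13 had 10.63, 11.26 and 8.65 at 24 h in sorbitol, against 7.90, 8.91 and 7.12 at 0 h, and sorbitol 0 h B lay above sorbitol 24 h C. Bg03-01_D16, the probe of identical sequence, had 10.10, 10.64 and 10.85 at 24 h in sorbitol, against 7.44, 8.60 and 7.97 at 0 h, without overlap. Its difference at 24 h in sorbitol was 2.52, against 2.20 for Bg04-05_N13, with 1 of the 3 sorbitol 0 h samples above background for each. It missed the choice because its NaCl 6 h and 24 h means each lay more than 0.5 above its NaCl 0 h mean. None of the NaCl 0 h samples of either spot was above background, so these NaCl values are readings against background, and no size is given for them. The same 35 bases on 2 spots thus gave higher sorbitol 24 h means on both and fell on both sides of a limit in NaCl that rested on such readings. In sorbitol 24 h C, an array of lowest signal, these 2 spots read 8.65 and 10.85.

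For 3 of the 27 at least 1 of the 3 sorbitol 24 h spots was uneven, with a mean over the spot's pixels of more than 2 times their median. Over the 5184 probes, 100 (1.93%) had such a spot on a sorbitol 24 h array, beside 11.1% of the 27. Bg03-08_H15, whose readings gave the largest difference of means (3.17), had 13.04, 9.54 and 8.91 at 24 h in sorbitol, against 7.67, 7.19 and 7.12 at 0 h. Its spot on sorbitol 24 h A had a mean intensity of 8338 and a median of 244, and the ratio of mean to median was 34.2, 2.86 and 7.76 on the 3 arrays. From the spot medians its difference was 0.74, and from the means without sorbitol 24 h A it was 1.90. No fold is given for it, since no sorbitol 0 h sample was above background and its sorbitol 24 h level depends on the spot statistic.

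Bg02-02_N16 had 13.15, 8.39 and 10.27 at 24 h in sorbitol, against 8.90, 8.61 and 8.62 at 0 h, so that sorbitol 24 h B lay below all 3 samples of 0 h. The sorbitol 0 h C spot, on an array of lowest signal, was uneven too. From spot medians sorbitol 24 h B read 7.80, against 8.86, 8.54 and 7.37 at 0 h, so it lay above 0 h C. On sorbitol 24 h A the spot had a mean of 8969 and a median of 702.5, and on sorbitol 24 h C a mean of 505 and a median of 38.5. The difference was 1.89 from spot means and 0.33 from spot medians, and leaving out sorbitol 24 h A gave 0.62 from the means, leaving out B 3.00. It also had the lowest NaCl difference at 24 h, -0.99, with 7.95, 8.72 and 8.44 at 24 h in NaCl, against 9.83, 9.39 and 8.85 at 0 h.

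Bg02-09_A06 had 10.61, 11.27 and 14.80 at 24 h in sorbitol, against 10.12, 10.06 and 11.01 at 0 h. The high value came from sorbitol 24 h C, its 1 uneven spot there, which had a mean of 15710 and a median of 2082. The difference was 1.83 from means and 0.83 from medians, and from the means 0.54 without sorbitol 24 h C and 0.81 without the arrays of lowest signal. These 3 had the largest SD at sorbitol 24 h, 2.22, 2.39 and 2.25, and with Bg04-05_N13 they are the 4 members whose SD there was over 1.

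**Figure D4:**
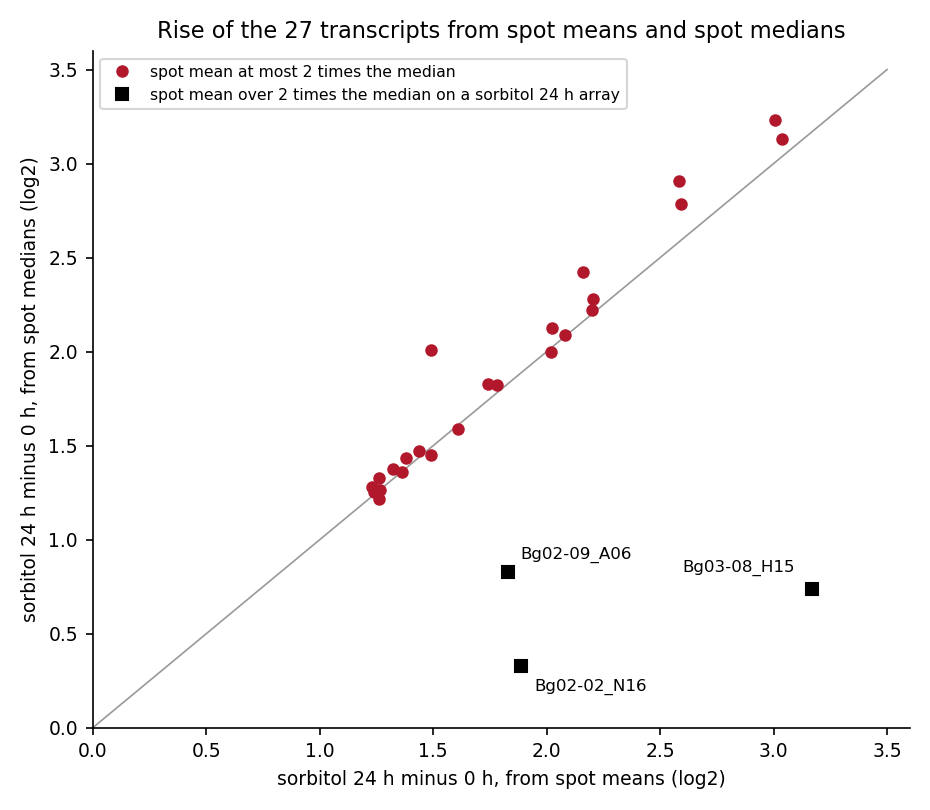
Difference between sorbitol 24 h and sorbitol 0 h (log2) of the 27 transcripts from spot means (horizontal) and spot medians (vertical); the line marks equal values. The 24 transcripts with even spots on all sorbitol 24 h arrays lie near the line, and the 3 with uneven spots (squares) lie far below it, at 0.74, 0.33 and 0.83.

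The other members had smaller differences. CL405Contig1 (1.74), Bg04-09_G10 (1.44), Bg01-05_N14 (1.36), Bg05-17_K05 (1.32) and Bg05-22_N01 (1.26) are named to account for every member and were chosen after their values were seen. CL405Contig1 had 11.39, 10.32 and 10.20 at 24 h in sorbitol, against 8.89, 9.14 and 8.66 at 0 h, and no other sample reached its sorbitol 24 h values. Bg05-17_K05 had 8.79, 10.48 and 10.02 at 24 h in sorbitol, and 4 other samples reached the lowest of these, among them NaCl 24 h C at 10.43. For Bg01-05_N14, NaCl 24 h C read 10.58, above sorbitol 24 h A and C (10.17 and 10.57).

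Overlap with other samples was present for 7 of the 27. It involved 1 other sample each for Bg04-05_N13, Bg01-05_N14 and Bg05-19_L17, 4 for Bg05-17_K05, 7 for Bg02-09_A06, 8 for Bg01-06_A14 and 9 for Bg02-02_N16. For Bg05-19_L17, NaCl 24 h C read 11.18, above sorbitol 24 h B at 10.96.

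The 3 members just inside the limit of 1.2 were Bg05-18_E23 (1.23), Bg04-15_O20 (1.24) and Bg05-19_L17 (1.26). The 3 probes just outside that met every other limit were Bg05-24_K19 (1.1956), Bg05-20_F03 (1.16) and CL627Contig1_74_109 (1.15). Of these, Bg05-24_K19 had 0.26 without sorbitol 24 h B, and Bg05-20_F03 had 1.89 when sorbitol 24 h A was left out, 0.56 when B was, and 0.42 from spot medians. Bg05-18_E23 had 10.63, 9.96 and 10.13 at 24 h in sorbitol, against 9.16, 8.70 and 9.16 at 0 h. Bg04-15_O20 had 10.37, 10.09 and 10.02 at 24 h in sorbitol, against 8.94, 8.97 and 8.86 at 0 h. In both of these transcripts the sorbitol 24 h samples lay above all 15 others, so the limit runs through probes with near equal differences.

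**Figure D5:**
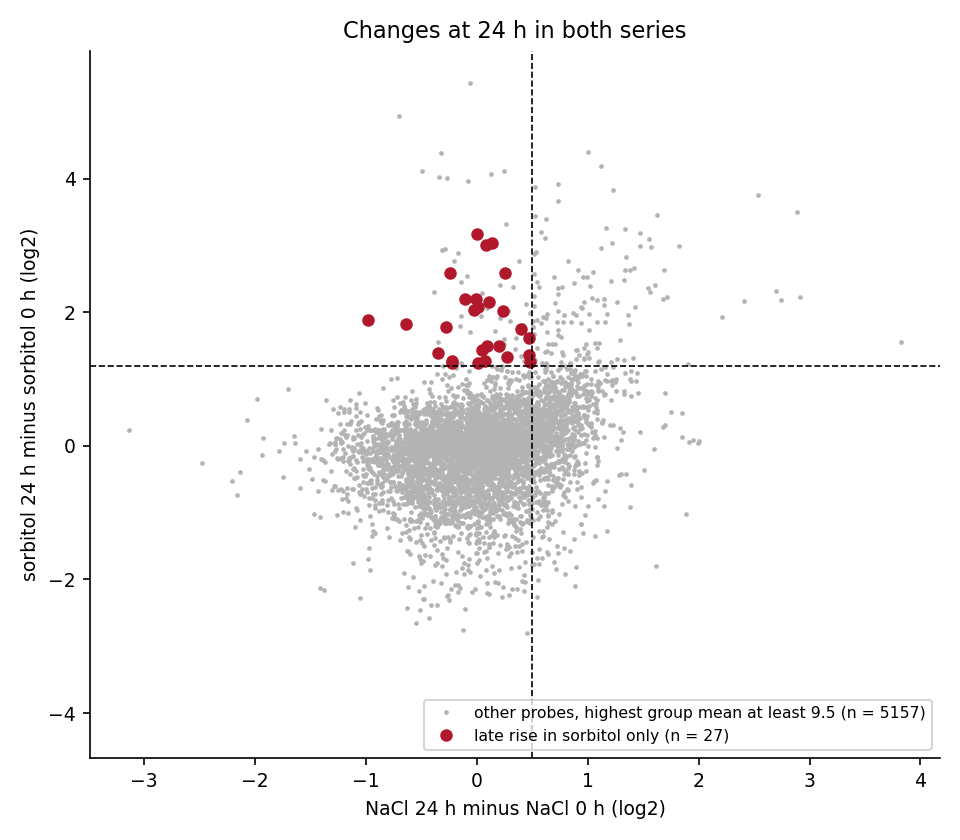
Difference from 0 h at 24 h in sorbitol (vertical) against that in NaCl (horizontal), both log2, for the 27 transcripts (red) and the other probes of like level (grey); dashed lines mark the limits of 1.2 and 0.5. The red points lie between 1.23 and 3.17 vertically and between -0.99 and 0.48 horizontally, and grey points in the same area failed a limit at 6 h.

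Probes of like level outside the 27 were ranked by the likeness of their course over the 18 samples to the mean of the members. The members themselves were not ranked. The 5 with the highest Pearson correlation, given as a description over samples that share their arrays, were CL1389Contig1_154_193 (0.946), Bg03-05_F14_546_580 (0.942), Bg04-21_I17_25_59 (0.942), Bg04-30_K13_568_603 (0.936) and Bg03-08_B06_540_576 (0.929). The 2 of these above background in all sorbitol 0 h samples, Bg03-08_B06 and Bg04-21_I17, had differences of 4.00 and 5.43 at 24 h in sorbitol. Bg04-21_I17 had 14.95, 13.88 and 14.62 at 24 h in sorbitol, against 9.15, 8.82 and 9.19 at 0 h. It missed the choice by its NaCl difference of 0.75 at 6 h, and the other 4 because their sorbitol 6 h means lay at least 0.6 above those of 0 h.

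Features of the probes that the choice did not use were set beside those of the 5184 probes of like level. The median GC content of their probes was 48.6% (range 40.5 to 57.1%), and the same median was found over the 5184. Probes of 35 bases made up 88.9% of them, beside 79.4% of the 5184, and 6 (22.2%) came from contigs, beside 15.8% of the 5184. No member was saturated on any array.

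The median SD between replicates was 0.39 over the members at sorbitol 24 h, beside 0.26 over the 5184 probes, and 0.30 at sorbitol 0 h, beside 0.27. The highest of the 3 sorbitol 24 h samples was A for 12 members, B for 8 and C for 7. The repeat array of NaCl 0 h C, which the choice did not use, differed from the first by an SD of 0.35 over the 27 members and 0.40 over the 5184 probes. Over the members the difference, repeat minus first, had a median of -0.21 and a range of -0.66 to 0.71, beside a median of 0.03 over the 5184. The choice did use the first array, and its NaCl limits favour probes with a high reading there. The median of -0.21 is therefore not independent of the choice.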

How the data were processed

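Per the labels' protocols, Cy5-labelled leaf RNA was run on 1-colour arrays. The deposited scanner files give each spot's foreground mean and median intensity on a linear scale, per the file headers. The authors' deposited table of intensity values served only as an alternative. There, sorbitol 24 h B and C equal the scanned spot medians (column medians 782 and 83, against 521 in the other 16), so these columns are on another scale.

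The foreground mean plus 50 was log2 transformed and quantile-normalized over the 11997 mangrove probes of 18 arrays, without the repeat array. Probes above the 95th percentile of the negative controls in at least 3 of the 18 samples (8642) entered limma (lmFit and eBayes, 6 group means, 12 residual degrees of freedom), with Benjamini-Hochberg adjustment. The fit was tested on simulated data. The normexp fit gave values above the scanner ceiling of 65535 on the 4 arrays of lowest signal, which then kept their uncorrected values; this was settled after the output was seen.

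Named are the members with the largest differences, gaps, levels and SD, the extremes in NaCl and at 6 h, related probes and those at the limit of 1.2. Other members named were chosen after their values were seen. Members, lists and naming rule were chosen with earlier results of these data known. Alternatives changed the background correction, spot statistic, offset, scaling, filter, 0 h control, repeat array, samples and limits of the choice. The values of 1 member are not reported here. No gene list was run, since the files hold no gene names. The number of arrays limits the precision. The analysis used R 4.3.3, limma 3.58.1, Python 3.11.15 and matplotlib 3.10.9.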

Additional observations from a re-analysis of the deposited data

Results flagged for a closer look

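For 9 of the 27 transcripts the 24 h response in sorbitol differed from that in NaCl by the test of the difference itself in limma's fit. Over all 8642 tested probes the share called higher in sorbitol was 1.48%. The choice of the transcripts used both contrasts, so the count of 9 describes them and adds no support. The difference of responses, sorbitol minus NaCl on the log2 scale, was 2.92 for Bg04-16_L16, 2.90 for Bg05-20_B04, 2.83 for Bg05-25_K02 and 2.33 for Bg01-03_G10. It was 2.07 for CL1010Contig1, 2.05 for Bg05-19_C12 and 2.05 for Bg04-29_J06. For Bg04-16_I07 it was 1.73 and for Bg04-15_O20 1.47. For Bg04-16_L16, Bg05-20_B04, Bg05-25_K02 and Bg01-03_G10 no sorbitol 0 h sample was above background, and for the first 3 of them no NaCl 0 h sample either. Their values are therefore differences from background readings, which give no size or rank of the response. Bg04-29_J06 had 1 of its 3 sorbitol 0 h samples above background, so its value rests partly on such readings. All 9 had even spots on the sorbitol 24 h arrays, and the 3 sorbitol 24 h samples of each lay above the other 15 samples. Such non-overlap was seen for 4.24% of the 5184 probes of like level, and it too follows from values that the choice used.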

How the results depend on the processing

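The choice depends on its limits: with a difference of at least 1.0 in place of 1.2 it found 41 transcripts, and with 1.5 it found 16. With the authors' deposited table as deposited, where 2 of the 3 sorbitol 24 h columns are on another scale, 7 members were called higher at 24 h, the median difference was 1.27 and 8 members did not overlap with other samples. There 0 members were called in the difference of responses by limma, with 12 at an unadjusted p under 0.05, and Bg02-02_N16 had a difference of -0.46. Leaving out each sample in turn found 23 to 32 transcripts (21 to 27 of the 27), with 20 to 25 called higher, 7 to 13 called in the difference of responses, medians of 1.65 to 1.85 and 20 to 22 not overlapping. Without the 4 arrays of lowest signal 31 transcripts were found, 19 of them members, and with spot medians 23, of which 19 were members. Of the 27, 6 were found under all 26 refitted settings: Bg05-25_K02, Bg04-05_N13, CL1010Contig1, Bg04-19_C16, Bg04-30_I13 and Bg04-16_I07. The members found least often were Bg01-06_A14, under 9 of the 26 settings, and Bg01-03_G10, under 10. Counting only the 24 members with even spots, an alternative added after seeing the data, left 23 called higher, 9 called in the difference of responses, a median of 1.68 and 19 not overlapping. Of 638 values of named probes under other settings, 596 moved by less than the replicate SD, 41 by more and 1 changed sign. These values are differences between sorbitol 24 h and 0 h, so leaving out a NaCl or a sorbitol 6 h sample could hardly move them. For probes with uneven spots the SD itself was large. The count of 596 is therefore no measure of stability. Same-lettered samples deviated with correlations of -0.29 to 0.48, over 0.1 in 25 of 45 pairs. Samples of different letters were not compared, so whether the letters pair samples cannot be told. With the letter as a replicate block 26 members were called higher and 12 in the difference of responses. For the settings of this section the share of all probes called or not overlapping was not computed. The choice used these contrasts, so nothing is read from the counts of members under them. Low signal limits the 6 members below background at sorbitol 0 h to bounds.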
